A study of Mus musculus with 33 samples.

Results

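Brown fat from between the shoulder blades of C57BL/6J mice on normal diet was compared between week 2 of the feeding study and its start. Samples were chosen by their labels alone, as the 3 arrays of normal diet week 2 and the 3 arrays of normal diet week 0, which are 6 of the 33 arrays of the series. The series followed normal and high-fat feeding over weeks 0 to 24 on Illumina mouse bead arrays, which read a transcript as the brightness of a probe. The normal diet was the AIN-76 semi-purified diet. Animals were housed singly at 24 °C with light periods of 12 hours, per the labels. The labels give an age of 7 weeks for the week 2 group and for the week 0 group, and do not say what the week 0 animals ate before they were taken. Time on the diet, age, time in the housing and day of sampling therefore cannot be told apart in this comparison. Chip and position of the arrays are not in the sources used here, so a batch of array processing cannot be told apart from week either. Replicates are numbered 1 to 3 with no statement that they came from separate animals, and where they did not, the p-values cover technical spread alone.

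Brown adipose tissue burns fatty acids to make heat. Its mitochondria carry uncoupling protein 1, which lets protons back across the inner membrane without making ATP. The same cells also build fatty acids from glucose and store them in many small droplets, and both activities answer to sympathetic nerves, insulin and feeding. In young mice the depot still grows, with dividing precursor cells and matrix being laid down.

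Defining genes of brown fat were bright on every array. Ucp1 read 15.42, 15.58 and 15.56 in normalized log2 intensity at week 2, against 15.24, 15.22 and 15.10 at week 0. Cidea, a lipid droplet protein of brown fat, read 15.68, 15.72 and 15.70 at week 2 and 15.67, 15.73 and 15.80 at week 0. These signals lie near the top of the intensity scale. Skeletal muscle genes were also present, at a mean over 22 measured markers of 8.63, 9.32 and 9.30 at week 2 and of 8.35, 8.23 and 8.24 at week 0. Of these markers, 21 were detected on all week 2 arrays and 18 on all week 0 arrays.

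Of 9630 genes tested, 1640 (17%) differed at an adjusted p under 0.05 (limma, Benjamini-Hochberg). Each gene was read at its brightest kept probe. Another kept probe was there for 689 called genes. Of these, 264 had another probe called the same way, and 198 had a probe of opposite sign, whether or not that probe passed. Week 2 was higher for 673 genes (6.99%) and lower for 967 genes (10%). The 3 week 2 arrays did not overlap the 3 week 0 arrays for 1591 of the called genes (16.5% of all tested), while 40.3% of all genes tested were apart whether called or not. Among the called genes, 38 rose and 44 fell by more than 2-fold, and 244 rose and 309 fell by more than 1.5-fold. The split between directions depends on the scaling. With arrays aligned at their medians in place of quantile normalization, the median of all genes shifted by -0.18, and 235 genes were higher and 2436 lower. Leaving out week 0 replicate 1 left 994 calls and leaving out week 2 replicate 3 left 1074. Group medians given below are therefore also stated relative to the median of all genes, which was -0.04 as normalized here.

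Raw median intensities were 142.2 to 150.5 on the week 2 arrays and 165.4 to 167.5 on the week 0 arrays. The part of an array batch in this was not tested. Detection rates were close, at 31.87% to 32.76% of probes at week 2 and 32.36% to 33.19% at week 0. Pearson's r across genes was 0.9925 to 0.9938 between week 2 arrays and 0.9909 to 0.9949 between week 0 arrays, against 0.9828 to 0.987 for arrays of different weeks. On the second principal component over all arrays, with 14.47% of the variance, week 2 scored 12.3 to 12.9 and week 0 scored 25.5 to 30.8, and the remaining arrays lay between -19.5 and 10.8.

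**Figure D1:**
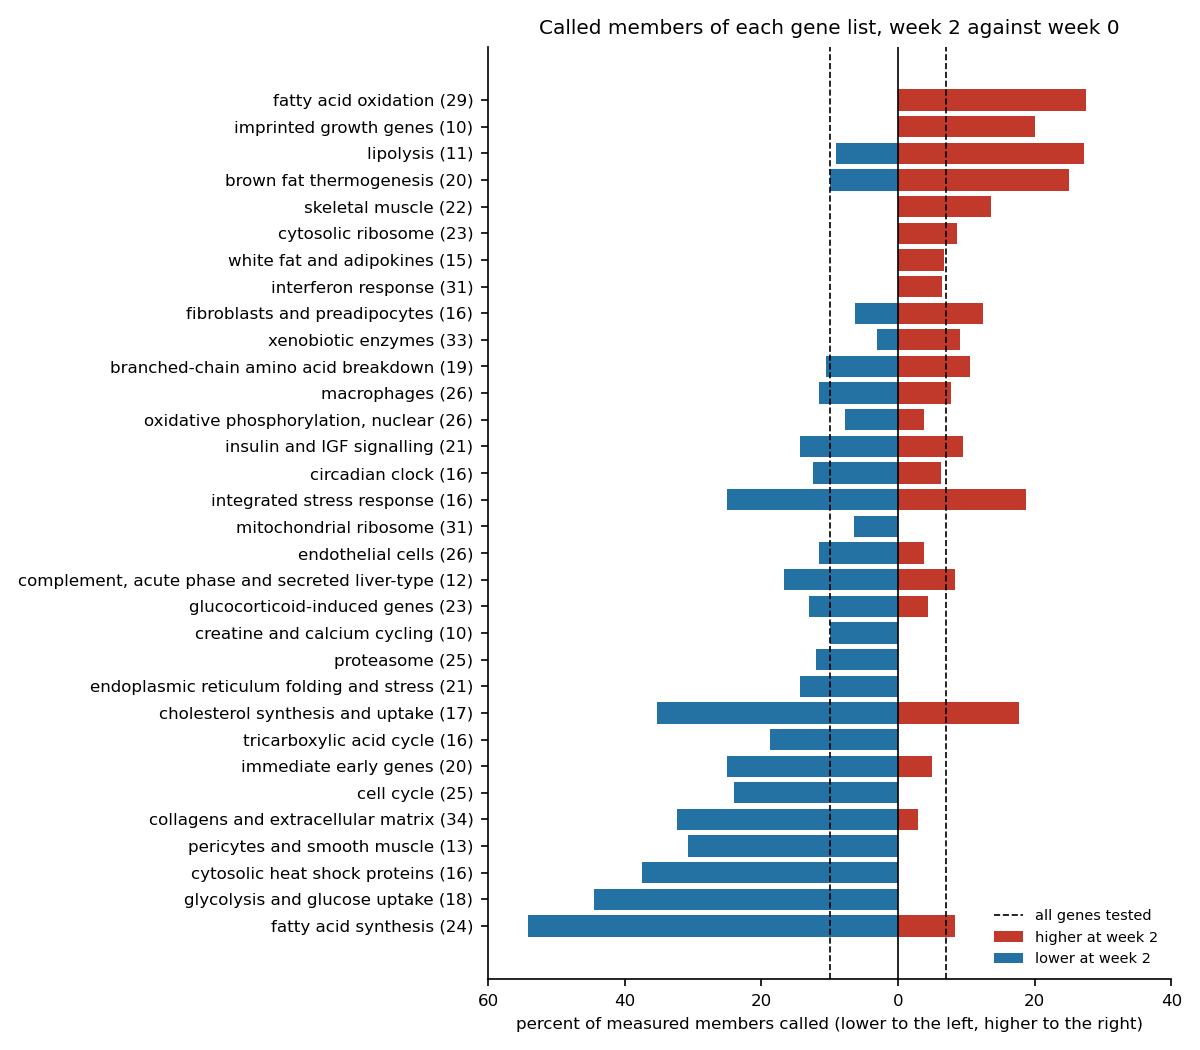
Percent of the measured members of each gene list that were called higher (right) or lower (left) at week 2 than at week 0, with the number measured in brackets and dashed lines at the shares for all genes tested, 6.99% and 10%. Lists with 10 or more measured members are drawn; fatty acid synthesis and glycolysis reach furthest to the left and fatty acid oxidation furthest to the right.

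The largest rise was that of Ffar2, a receptor for short-chain fatty acids. It read 9.05, 8.77 and 9.27 at week 2, against 7.20 on each of the week 0 arrays. The arrays of the weeks were far apart, and the difference was 1.83 log2 units (SE 0.15, adjusted p = 1.53e-08), or 3.56-fold. Later normal diet groups kept to the week 2 level, with Ffar2 at 9.05 ± 0.29, 8.99 ± 0.08, 9.25 ± 0.22 and 9.10 ± 0.04 (SD, n = 3 each) at weeks 4, 8, 20 and 24.

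Akt2 and Cdon were among the other large rises. Akt2, the kinase that carries the insulin signal to glucose uptake, read 9.95, 9.78 and 9.82 at week 2 and 8.02, 8.66 and 8.53 at week 0. All week 2 values lay above all week 0 values, as the rule for these genes required, and the rise was 1.45 (SE 0.14, adjusted p = 2.6e-07). A second Akt2 probe rose by 1.27. Cdon, a Hedgehog co-receptor on the cell surface, read 8.00, 8.12 and 7.96 at week 2, against 6.50, 6.93 and 6.69 at week 0. Its 1.32 rise (SE 0.12, adjusted p = 4.58e-08) left a gap of more than 1 unit between the weeks. Pmepa1, an inhibitor of TGF-beta signalling, rose by 1.24 (adjusted p = 3.68e-07), and Dusp4, a phosphatase that switches off MAP kinases, rose by 1.35 (adjusted p = 0.000402).

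Chac1, Hacl1 and Gpat3 were in the same group. Chac1, an enzyme that breaks down glutathione and is induced in amino acid stress, read 8.43, 8.84 and 8.55 at week 2 and 6.70, 7.25 and 6.97 at week 0, a rise of 1.64 (SE 0.31, adjusted p = 0.00072). Hacl1, which shortens branched and hydroxylated fatty acids in peroxisomes, read 8.38, 8.71 and 8.32 at week 2, against 6.88, 7.12 and 7.06 at week 0, and rose by 1.45 (adjusted p = 9.4e-07). Gpat3, which adds the first acyl chain to glycerol-3-phosphate in triglyceride synthesis, rose by 1.36 (adjusted p = 3.26e-05), and its second probe rose by 2.05. The other large rises were Ddx5, an RNA helicase (1.41), Rnf13, a ubiquitin ligase (1.40), Srp54a, of the signal recognition particle (1.24), and Tmem254a, a membrane protein (1.23). The muscle genes Mylpf, Ckm and Mylk2, also among the 15 largest rises, are described with the muscle markers.

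**Figure D2:**
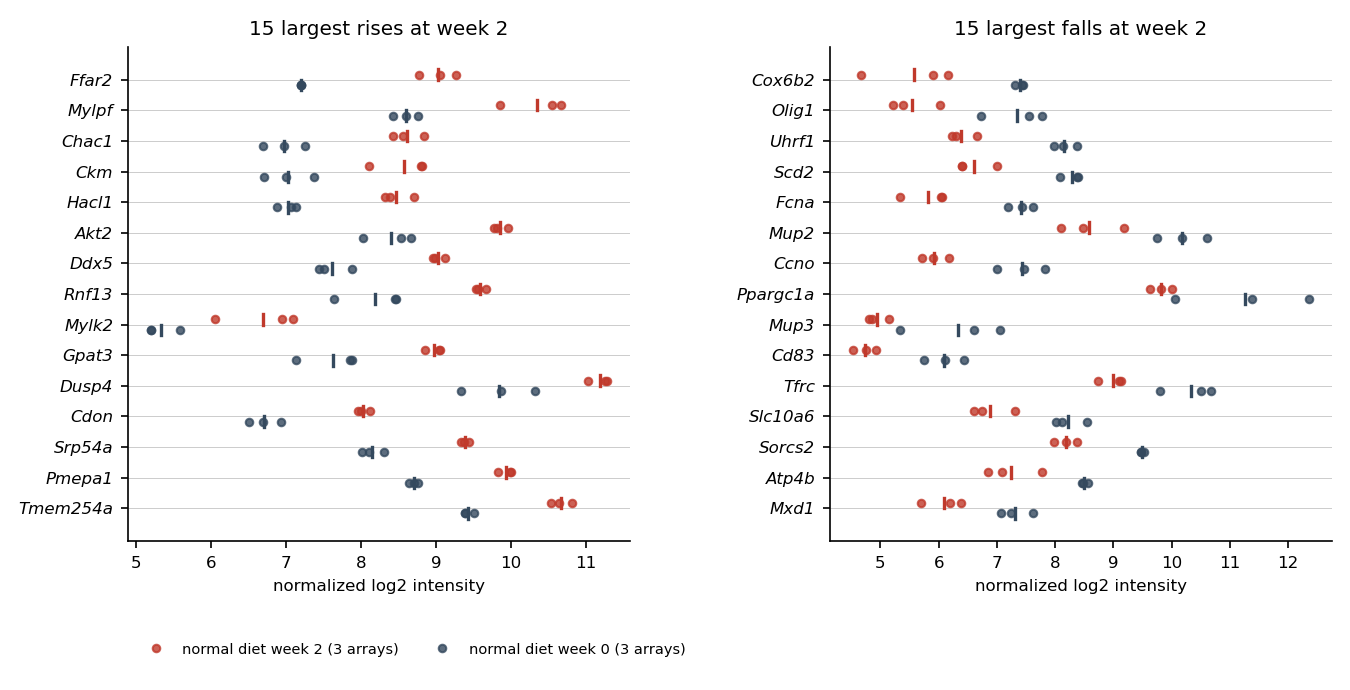
Normalized log2 intensity of each array for the 15 genes with the largest rise (left) and the 15 with the largest fall (right), for normal diet week 2 (red, upper row of each gene) and week 0 (blue, lower row); vertical ticks are means of 3 arrays. No gene shown has overlapping arrays, since that was part of the rule, and the 3 week 0 points of Ffar2 coincide at 7.20.

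Among the largest falls, Uhrf1, which holds DNA methylation in place as cells copy their DNA, had the smallest p. It read 6.29, 6.65 and 6.23 at week 2, against 8.37, 8.13 and 7.98 at week 0. The gap between the weeks exceeded the spread within each, and the difference was -1.77 (SE 0.15, adjusted p = 3.11e-08). On normal diet Uhrf1 stayed low later. It averaged 6.45, 6.68, 6.30 and 6.44 at weeks 4, 8, 20 and 24. In the authors' normalized values differences of dim genes were smaller, with -1.05 for Uhrf1 and -0.96 for Cox6b2.

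The largest fall, that of Cox6b2, had another course. This isoform of a cytochrome c oxidase subunit, known from testis, read 4.67, 5.90 and 6.16 at week 2 and 7.32, 7.42 and 7.44 at week 0. Only 1 of the 3 week 2 arrays detected it, and the difference was -1.82 (SE 0.22, adjusted p = 6.96e-06). At week 4 on normal diet Cox6b2 averaged 7.12 ± 0.08 (SD, n = 3), near its level at the start. Cd83, a surface protein of antigen-presenting cells, likewise had its lowest normal diet mean at week 2. It was detected on no week 2 array and on 2 week 0 arrays, so it was at least 1.01-fold lower at week 2 (adjusted p = 0.000111). It averaged 4.73 at week 2, 6.10 at week 0 and 5.75 at week 4.

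Mup2, a major urinary protein made mostly in liver, read 9.17, 8.48 and 8.11 at week 2, against 10.61, 9.75 and 10.17 at week 0. It fell by 1.59 (adjusted p = 0.00989), and its averages went on down to 5.93 at week 4 and 5.58 at week 8 on normal diet. Without week 2 replicate 3 or week 0 replicate 1 the adjusted p of Mup2 was 0.0602 or 0.0615. Major urinary protein genes are near-identical copies, so the probes of Mup2 and Mup3 may read several of them. Mup3 was detected on no week 2 array and 2 week 0 arrays and was at least 1.19-fold lower at week 2. Its adjusted p was 0.0369, and at most 0.197 with 1 array left out, with the call lost without any array but week 0 replicate 2.

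Tfrc, Fcna and Olig1 were also among the largest falls. Tfrc, the transferrin receptor, read 9.10, 8.73 and 9.13 at week 2 and 9.81, 10.68 and 10.51 at week 0, a difference of -1.35 (adjusted p = 0.00239), with -1.49 at its second probe. Fcna, a ficolin that starts the lectin route of complement, was detected on all week 0 arrays and no week 2 array and was at least 2.51-fold lower at week 2 (adjusted p = 9.9e-05). Olig1, a transcription factor known from oligodendrocytes, was detected in the same way and was at least 2.40-fold lower (adjusted p = 3.34e-05). Slc10a6 (a steroid sulfate carrier) differed by -1.34, Sorcs2 (a sortilin-family receptor) by -1.31 and Atp4b (a subunit of the gastric proton pump) by -1.26, each with an adjusted p of 0.00368 or less. Ccno (cyclin O) was detected on all week 0 arrays and 1 week 2 array and differed by -1.51 (adjusted p = 3.26e-05). It was detected on 5 of the 33 arrays, so it was tested only because of the week 0 arrays, where it is higher. Mxd1, a repressor that pairs with Max, fell by 1.21 (adjusted p = 0.0117), a call lost without week 2 replicate 1 or week 0 replicate 1 (adjusted p up to 0.0662).

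Fatty acid synthesis was the list with the most falls. Of 24 measured members 13 fell and 2 rose (62.5% called, against 17% of all genes tested). The median was -0.31, which is -0.28 relative to all genes under either scaling. Between 10 and 12 members fell with any 1 array left out. The falls included enzymes that make cytosolic acetyl-CoA, the fatty acid synthase and an elongase. Acacb, an acetyl-CoA carboxylase, did not pass (-0.29, adjusted p = 0.0716). The 2 rises were Gpam and Agpat2, acyltransferases of triglyceride synthesis, and neither was called without week 2 replicate 1, week 2 replicate 3 or week 0 replicate 1.

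Acly, which splits citrate into acetyl-CoA in the cytosol, read 14.97, 14.77 and 14.80 at week 2, against 15.51, 15.69 and 15.74 at week 0. The values of the weeks were clearly apart, and the fall was 0.80 (SE 0.10, adjusted p = 1.8e-05), or 1.74-fold. Acss2, which makes acetyl-CoA from acetate, read 13.43, 13.06 and 13.23 at week 2 and 13.86, 14.22 and 14.10 at week 0. It fell by 0.82 (SE 0.12, adjusted p = 9.9e-05). A dimmer second Acss2 probe differed by 0.02, and the mean over both probes was -0.40 (adjusted p = 0.0513). Aacs, which activates the ketone body acetoacetate for lipid synthesis, read 12.92, 12.94 and 12.77 at week 2, against 13.61, 13.66 and 13.69 at week 0. With a fall of 0.78 (SE 0.09, adjusted p = 5.66e-06) it had the smallest p of the list.

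Mlxipl, the glucose-sensing transcription factor of lipogenic genes, read 11.63, 11.27 and 11.44 at week 2 and 12.08, 11.98 and 12.02 at week 0, a difference of -0.58 (SE 0.09, adjusted p = 0.000188). A further Mlxipl probe moved less, and the mean over its probes was -0.32 (adjusted p = 0.0149). Elovl6, which lengthens palmitate to stearate, fell by 0.56 (adjusted p = 0.000992). Fasn, the fatty acid synthase itself, read 10.68, 10.11 and 10.04 at week 2 and 10.81, 10.92 and 10.78 at week 0. It fell by 0.56 (adjusted p = 0.0213), but without week 2 replicate 2 or 3 or week 0 replicate 1 or 2 its adjusted p was 0.0526 to 0.12.

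Of the desaturases, Scd2 passed and Scd1 did not. Scd2, the form of young and neural tissue, read 6.40, 6.39 and 7.01 at week 2, against 8.08, 8.38 and 8.38 at week 0. Its fall of 1.68 (SE 0.33, adjusted p = 0.00103) was the largest of the list. Scd1, the main form in fat, stayed bright, with 15.97, 15.95 and 15.90 at week 2 and 15.90, 15.82 and 15.93 at week 0 (difference 0.06, adjusted p = 0.589). Its arrays overlapped, and its signal lies near the top of the scale. The difference between the desaturases was not tested.

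Cholesterol synthesis went both ways. Of 17 measured members 6 fell and 3 rose (52.9% called, against 17% of all genes tested). The median was -0.12, or -0.09 relative to all genes and -0.05 relative to them with arrays aligned at the medians. It was also -0.05, with the same counts, without background correction. Lss, which closes the sterol ring, read 8.44, 8.67 and 8.72 at week 2 and 9.39, 9.57 and 9.50 at week 0, and fell by 0.87 (SE 0.13, adjusted p = 6.69e-05). Pmvk, a kinase of the mevalonate route, fell by 0.72 (adjusted p = 0.000538). Fdps, which makes farnesyl diphosphate, fell by 0.69 (adjusted p = 9.91e-05) at its bright probe, with 0.17 at a dim one and -0.26 as the mean over both (adjusted p = 0.199).

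Insig1, which holds the sterol-sensing complex back in the endoplasmic reticulum, was on the other side. It read 10.77, 10.51 and 10.60 at week 2, against 9.58, 9.73 and 9.67 at week 0, and rose by 0.97 (SE 0.18, adjusted p = 0.000513). A second probe rose by 0.81, and a further one averaged 9.73 at week 2 and 9.74 at week 0. Sqle, squalene epoxidase, depends on the probe. The brighter one read 9.01, 8.79 and 9.27 at week 2 and 8.97, 9.11 and 9.11 at week 0 (difference -0.04, adjusted p = 0.892), while the dimmer one was 1.01 higher at week 2 (adjusted p = 0.000647 over all probes).

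Fatty acid oxidation moved the opposite way to synthesis. Of 29 measured members 8 were higher and 0 lower by limma at an adjusted p under 0.05 (27.6%, against 17% of all genes tested). At an unadjusted p under 0.05, 11 were higher and 1 lower. With any 1 array left out, 7 or 8 were higher. Its median was 0.13, which is 0.17 relative to all genes and 0.24 relative to them with arrays aligned at the medians, where 6 were higher and 1 lower. Skeletal muscle markers were also higher on the week 2 arrays. With their mean as a covariate, 8 members were higher and 0 lower. The slope in that fit rests on spread within the groups of all 33 arrays. The muscle mean itself did not overlap between the weeks, and the part of muscle RNA in these rises was not tested.

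Hadh, the third enzyme of the mitochondrial beta-oxidation cycle, read 8.83, 8.75 and 8.76 at week 2 and 7.66, 7.45 and 7.82 at week 0. The groups were apart by nearly a unit, and the rise was 1.14 (SE 0.16, adjusted p = 3.26e-05). A dimmer Hadh probe differed by 0.41 and did not pass (limma, adjusted p = 0.0706 over all probes). Ucp3, an uncoupling protein that follows fatty acid use in muscle and brown fat, read 10.91, 10.80 and 10.97 at week 2, against 9.76, 10.02 and 9.97 at week 0, and rose by 0.98 (SE 0.15, adjusted p = 9.73e-05). Acadl, the long-chain acyl-CoA dehydrogenase, read 12.97, 13.06 and 13.06 at week 2 and 12.04, 12.43 and 12.42 at week 0, a rise of 0.74 (adjusted p = 0.000402). Another bright Acadl probe averaged 12.11 at week 2 and 12.08 at week 0 (limma, adjusted p = 0.882 over all probes). A dim one differed by 0.27. The mean over the Acadl probes was 0.35 (adjusted p = 0.00998).

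Acaa2, the thiolase that ends the cycle, rose by 0.81 (SE 0.13, adjusted p = 0.000182). Its probes read 0.74 and 0.70 in the same direction and -0.24 in the other. Cpt1b, the carnitine gate for entry of fatty acids into mitochondria, read 13.95, 13.84 and 13.92 at week 2 and 13.77, 13.47 and 13.76 at week 0 (difference 0.24, adjusted p = 0.0992). Pdk4, which turns glucose away from oxidation, differed by 0.08 (adjusted p = 0.78), and Fabp3, a fatty acid binding protein, by 0.15 (adjusted p = 0.261). Those 3 therefore did not pass the test.

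**Figure D3:**
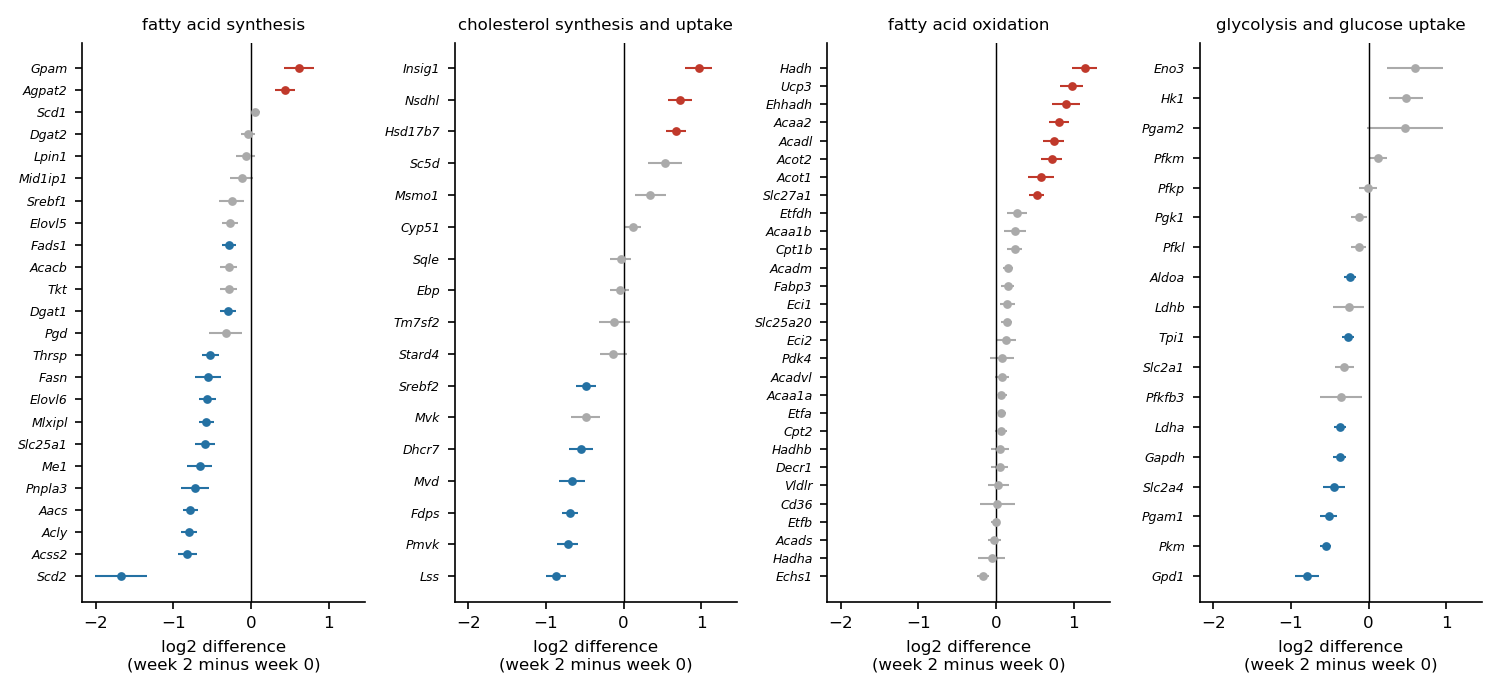
Log2 difference, week 2 minus week 0, with its standard error, for every measured member of 4 metabolic lists; red and blue points passed at an adjusted p under 0.05 and grey points did not. Most points of fatty acid synthesis and glycolysis lie left of 0, and all 8 called points of fatty acid oxidation lie right of it.

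Lipid droplet and lipolysis genes gave 3 rises and 1 fall among 11 measured members (36.4% called, against 17% of all genes tested). The median was 0.17, or 0.20 relative to all genes. Cidec, which fuses droplets, read 14.26, 14.29 and 14.44 at week 2, against 13.88, 13.86 and 13.84 at week 0, and rose by 0.47 (SE 0.07, adjusted p = 0.000102). Aqp7, the glycerol channel of fat cells, rose by 0.57 (adjusted p = 0.000402), though the mean over its 4 probes was 0.47 (adjusted p = 0.0946). Plin2, which coats droplets, rose by 0.47 (adjusted p = 0.00823), and with arrays aligned at the medians by 0.28 (adjusted p = 0.174). G0s2, an inhibitor of the lipase Pnpla2, read 12.34, 12.90 and 12.73 at week 2 and 13.25, 13.81 and 13.63 at week 0, and fell by 0.91 (SE 0.19, adjusted p = 0.00157).

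Glycolysis and glucose uptake held 8 falls and 0 rises among 18 measured members (adjusted p under 0.05, limma). That is 44.4% called, against 17% of all genes tested. At an unadjusted p under 0.05 there were 9 falls and 1 rise. With 1 array left out, 6 to 8 falls were called. The median was -0.26, or -0.22 relative to all genes under either scaling, and -0.17 without background correction. Pkm, pyruvate kinase, read 14.43, 14.44 and 14.38 at week 2, against 14.96, 14.95 and 14.99 at week 0. The tight replicates left a wide gap, and the fall was 0.55 (SE 0.07, adjusted p = 1.49e-05). Gpd1, which turns a glycolytic intermediate into glycerol-3-phosphate, read 14.07, 13.94 and 13.67 at week 2 and 14.82, 14.68 and 14.58 at week 0, and fell by 0.80 (adjusted p = 0.000882). Pgam1 fell by 0.51 and Ldha by 0.37 (adjusted p = 0.00184 for each), while the mean over the probes of Pgam1 was -0.33. At week 2 itself, high-fat and normal diet differed in 183 of 9630 genes (1.9%, adjusted p under 0.05, limma), none of them among the named glycolytic genes. On normal diet Pkm averaged 14.81, 14.51, 14.80 and 15.03 at weeks 4, 8, 20 and 24.

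Insulin and IGF signalling had 2 rises and 3 falls among 21 measured members (23.8% called, against 17% of all genes tested). Its median was 0.02, or 0.05 relative to all genes. Beside Akt2, Grb14, an adaptor that inhibits the insulin receptor, rose by 0.81 (SE 0.18, adjusted p = 0.00295). The difference was 0.49 without background correction, and the call was lost with the 9 arrays of weeks 2 and 0 on both diets fitted alone (adjusted p = 0.0701). A second Grb14 probe differed by 0.48 (adjusted p = 0.105 over all probes). Pik3r1, the regulatory subunit of PI3-kinase, read 11.09, 10.77 and 10.89 at week 2 and 11.72, 11.78 and 11.77 at week 0, and fell by 0.84 (adjusted p = 0.00688). The mean over the 3 probes of Pik3r1 was -0.54 (adjusted p = 0.0741). Foxo1, the transcription factor that insulin excludes from the nucleus, read 10.29, 10.12 and 10.16 at week 2, against 11.03, 10.58 and 10.84 at week 0, and fell by 0.63 (adjusted p = 0.0025).

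The thermogenesis list had 5 rises and 2 falls among 20 measured members (35% called, against 17% of all genes tested). Its median was -0.02, which is 0.01 relative to all genes and 0.15 relative to them with arrays aligned at the medians. Ucp1, whose values are given above, was higher by 0.33 (SE 0.11, adjusted p = 0.033), or 1.26-fold. That call was lost with arrays aligned at the medians (0.22, adjusted p = 0.187), with the muscle covariate (adjusted p = 0.0551), and without any array but week 2 replicate 1 (adjusted p 0.0576 to 0.123). Elovl3, an elongase induced in active brown fat, read 9.25, 9.73 and 9.57 at week 2 and 9.14, 8.96 and 8.99 at week 0. It was higher by 0.49 (adjusted p = 0.0347), and its call was lost under the same median alignment (0.27) and without any array but week 2 replicate 1 (adjusted p up to 0.166). With either week 2 replicate 2 or 3, or week 0 replicate 1 or 2, left out, the list had 2 rises.

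Slc27a2, a fatty acid transporter and acyl-CoA synthetase, read 13.12, 13.19 and 13.24 at week 2, against 12.60, 12.58 and 12.74 at week 0, and rose by 0.54 (SE 0.11, adjusted p = 0.00102), or by 0.35 with arrays aligned at the medians. Zic1, a marker of the dorsal precursor of brown fat, rose by 0.72 (adjusted p = 0.00712), with an adjusted p of 0.0552 after median alignment. Kcnk3, a potassium channel that damps adrenergic signalling, read 11.36, 11.26 and 11.26 at week 2 and 12.06, 11.65 and 11.86 at week 0, and fell by 0.56 (SE 0.09, adjusted p = 0.000198). White fat markers gave 1 rise among 15 measured members (6.67% called, against 17% of all genes tested). That was Sncg, gamma-synuclein, at 9.31, 9.12 and 9.45 at week 2 and 8.40, 8.33 and 8.33 at week 0 (rise 0.94, adjusted p = 0.000288), while Adipoq differed by 0.17 (adjusted p = 0.166) and Lep by -0.30 (adjusted p = 0.513).

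Cytosolic heat shock proteins gave 6 falls and 0 rises among 16 measured members (adjusted p under 0.05, limma). Called members made up 37.5%, against 17% of all genes tested. At an unadjusted p under 0.05 these proteins gave 10 falls and 1 rise. Their median was -0.36, or -0.32 relative to all genes and -0.33 relative to them after median alignment. Leaving out 1 array left 4 to 6 falls, with 4 without week 2 replicate 1 or 3 and without week 0 replicate 1 or 3. Hspb1, a small heat shock protein, read 10.60, 10.61 and 10.80 at week 2, against 11.78, 11.79 and 11.84 at week 0. The arrays of each week lay close together and the fall was 1.14 (SE 0.22, adjusted p = 0.000826), or 2.20-fold. Ahsa1, which activates the HSP90 ATPase, read 9.57, 9.61 and 9.70 at week 2 and 10.31, 10.21 and 10.10 at week 0, and fell by 0.58 (adjusted p = 0.000611). Hsp90aa1, the inducible HSP90, fell by 0.57 (adjusted p = 0.0114), with -0.43 as the mean over its probes (adjusted p = 0.0572), and Stip1, which links HSP70 to HSP90, by 0.53 (adjusted p = 0.00955).

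Genes of this list are classic targets of heat shock factor 1, which binds inverted repeats of GAA, so the promoters of its falling members are shown. RefSeq promoters (mouse build GRCm38.p6, 250 bases before to 50 after the start) were given for 4 of the 6. Capitals mark matches to GAANNTTC or TTCNNGAA. The promoters are Ahsa1 at chr12:87266478-87266777 on the plus strand, Bag3 at chr7:128523333-128523632 on the plus strand, Hspb1 at chr5:135887669-135887968 on the plus strand and Stip1 at chr19:7039977-7040276 on the minus strand.
Ahsa1: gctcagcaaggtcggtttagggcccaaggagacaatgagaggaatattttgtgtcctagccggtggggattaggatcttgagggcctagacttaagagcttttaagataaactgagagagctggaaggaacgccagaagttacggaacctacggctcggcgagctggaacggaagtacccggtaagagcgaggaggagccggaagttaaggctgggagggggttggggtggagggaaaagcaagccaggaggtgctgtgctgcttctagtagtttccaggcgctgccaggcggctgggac
Bag3: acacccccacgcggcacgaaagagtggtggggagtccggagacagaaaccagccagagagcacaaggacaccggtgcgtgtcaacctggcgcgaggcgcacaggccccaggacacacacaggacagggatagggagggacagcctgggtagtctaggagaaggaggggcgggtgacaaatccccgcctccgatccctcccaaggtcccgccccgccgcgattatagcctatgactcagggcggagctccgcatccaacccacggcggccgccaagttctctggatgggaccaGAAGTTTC
Hspb1: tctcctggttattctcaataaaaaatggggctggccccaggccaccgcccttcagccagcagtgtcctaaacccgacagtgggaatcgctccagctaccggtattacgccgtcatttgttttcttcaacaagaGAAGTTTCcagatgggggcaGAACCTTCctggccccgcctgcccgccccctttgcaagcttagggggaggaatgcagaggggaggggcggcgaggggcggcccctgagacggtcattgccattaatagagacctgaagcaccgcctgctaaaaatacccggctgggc
Stip1: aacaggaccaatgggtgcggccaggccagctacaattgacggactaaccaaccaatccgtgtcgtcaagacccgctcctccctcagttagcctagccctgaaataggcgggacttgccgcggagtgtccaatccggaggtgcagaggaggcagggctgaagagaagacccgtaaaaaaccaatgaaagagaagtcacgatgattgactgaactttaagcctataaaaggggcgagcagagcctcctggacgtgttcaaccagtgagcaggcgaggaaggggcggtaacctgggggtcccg
Hspb1 held 2 matches, upstream of the start, and Bag3 held 1 after it, while Ahsa1 and Stip1 held none in this window. Bag3 fell by 0.35 (adjusted p = 0.0297). Over 27025 genes with a promoter, 15.07% held a match on either strand. Of list members with a promoter, 7 of 13 did, counted without regard to change, and 2 of 4 falling members did. Since the list holds classic targets of the factor, its share does not bear on the falls. A match is not evidence that the factor bound there. Of 10 falling fatty acid synthesis genes with a promoter, 1 held the E-box CACGTG, found in 7.241% of all promoters.

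Amino acid and endoplasmic reticulum stress genes were split. The integrated stress response list had 3 rises and 4 falls among 16 measured members (43.75% called, against 17% of all genes tested). Beside Chac1, Phgdh, which starts serine synthesis, read 6.51, 6.50 and 6.58 at week 2, against 5.57, 5.80 and 5.66 at week 0, where no array detected it. It was at least 1.42-fold higher (adjusted p = 0.00073). Atf5, a transcription factor of the mitochondrial stress response, read 10.99, 11.10 and 11.05 at week 2 and 11.74, 11.86 and 11.79 at week 0, and fell by 0.75 (SE 0.12, adjusted p = 0.000188). Ddit3, a stress factor that promotes cell death, fell by 0.66 (adjusted p = 0.00302). In the list of endoplasmic reticulum folding genes 3 of 21 fell (14.3% called, against 17% of all genes tested). Leaving out week 0 replicate 1 left 2 falls. Among the 3 was P4hb, a disulfide isomerase, by 0.40 (adjusted p = 0.00151).

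Cell cycle genes gave 6 falls and 0 rises among 25 measured members (adjusted p under 0.05, limma). The share called was 24%, against 17% of all genes tested. At an unadjusted p under 0.05 there were 10 falls and 0 rises. The list median was -0.29, or -0.25 relative to all genes. With arrays aligned at the medians it was -0.18 relative to them, and without background correction the median was -0.10 with 4 falls. Of the 25 members, 12 were detected on no week 2 array and 6 on no week 0 array. Without week 0 replicate 3, 4 fell. In bulk tissue, fewer cells of a type and less RNA per cell cannot be told apart. Beside Uhrf1, Mcm5, a subunit of the replicative helicase, read 6.57, 6.73 and 6.83 at week 2, against 7.45, 7.48 and 7.35 at week 0, and fell by 0.72 (adjusted p = 0.00433). Nusap1, a spindle protein, was detected on no week 2 array and 2 week 0 arrays and was at least 1.08-fold lower (adjusted p = 0.00442). Plk1, a mitotic kinase, passed the test (adjusted p = 0.00585) but was detected on no array of either week.

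Matrix genes fell more often than they rose, with 11 falls and 1 rise among 34 measured (35.3% called, against 17% of all genes tested). The median was -0.21, or -0.17 relative to all genes and -0.18 after median alignment. Without background correction it was -0.12, with the same counts of falls and rises. Between 8 and 11 fell with 1 array left out, and Fn1, the rise, was called only without week 0 replicate 3 among those runs. Serpinh1, the collagen chaperone, read 12.61, 12.27 and 12.46 at week 2, against 12.93, 12.97 and 12.95 at week 0, and fell by 0.50 (SE 0.10, adjusted p = 0.000992). Col4a1, of basement membranes, read 12.44, 12.28 and 12.33 at week 2 and 12.96, 12.58 and 12.75 at week 0, and fell by 0.41 (adjusted p = 0.00175). Col5a1 fell by 0.53 (adjusted p = 0.00442).

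Col1a1, the main fibrillar collagen chain, read 8.53, 8.28 and 8.75 at week 2 and 9.07, 9.07 and 9.08 at week 0. The week 2 arrays were lower and more spread, and the fall was 0.56 (adjusted p = 0.00881), with an adjusted p of 0.0678 without week 2 replicate 2. Timp3, an inhibitor of matrix proteases, fell by 0.57 (adjusted p = 0.000783), though the mean over its 3 probes was -0.30 (adjusted p = 0.0925). On normal diet Col4a1 averaged 12.35, 12.13, 11.88 and 11.65 at weeks 4, 8, 20 and 24, and Col1a1 8.05, 8.07, 8.19 and 8.20. Both were lower at each later week than at week 0 in these means, which were not tested here.

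Imprinted growth genes had 2 rises and 0 falls among 10 measured members (20% called, against 17% of all genes tested). The counts were the same at p under 0.05 by limma with and without adjustment. Both rises were called with any 1 array left out. Peg3, a paternally expressed zinc finger gene, read 12.11, 12.32 and 12.23 at week 2, against 11.21, 10.94 and 11.16 at week 0. The rise was 1.12 (SE 0.20, adjusted p = 0.000394), with 1.29 at a second probe. Gnas, whose locus encodes the stimulatory G protein behind beta-adrenergic signalling, read 13.42, 13.44 and 13.44 at week 2 and 12.61, 12.73 and 12.49 at week 0. It rose by 0.82 (SE 0.14, adjusted p = 0.000215), while its 5 probes ranged from -0.50 to 0.91 and their mean was 0.44. Igf2 differed by -0.06 (adjusted p = 0.718), Grb10 by -0.26 (adjusted p = 0.226) and Cdkn1c by 0.17 (adjusted p = 0.35).

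**Figure D4:**
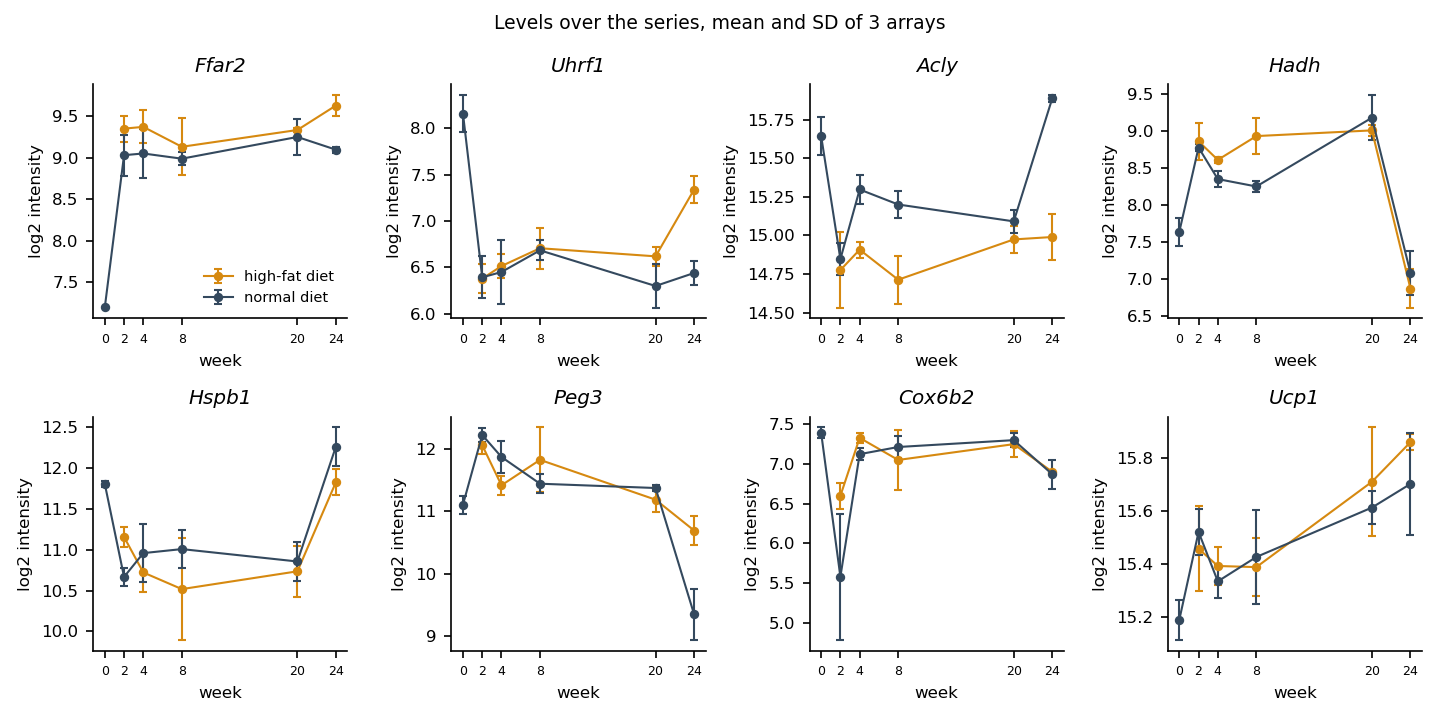
Normalized log2 intensity (mean and SD of 3 arrays) of 8 genes over weeks 0 to 24, for high-fat diet (orange, from week 2) and normal diet (dark blue, from week 0); each panel has its own scale, which does not start at 0. On normal diet Ffar2 stays near 9 and Uhrf1 near 6.4 after week 2, while Cox6b2 is back at 7.12 by week 4.

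Immediate early genes, which answer to stimulation within minutes, were unequal among the week 0 arrays. Of 20 measured members 5 fell and 1 rose (30% called, against 17% of all genes tested). However, 0 fell without week 0 replicate 1 (adjusted p under 0.05, limma, in both counts). The mean over the list was 7.26, 7.81 and 7.40 at week 2 and 8.12, 7.30 and 7.69 at week 0. Fosb, a subunit of the AP-1 factor, read 4.62, 5.02 and 5.12 at week 2, against 8.19, 5.12 and 6.67 at week 0. Week 0 replicate 2 lay at the week 2 level, so the groups overlapped. Fosb was detected on no week 2 array and 2 week 0 arrays and was at least 1.49-fold lower (adjusted p = 0.00782, or 0.0976 without week 0 replicate 1). It was detected on 4 of the 33 arrays, so it too was tested only because of the week 0 arrays. Atf3, a stress-induced factor, had the same order of arrays, at 4.69, 4.69 and 4.85 at week 2 and 7.84, 4.83 and 6.42 at week 0 (at least 1.21-fold lower, adjusted p = 0.00751, or 0.093 without week 0 replicate 1). Nr4a2, an orphan nuclear receptor, fell by 1.05 (adjusted p = 0.00928, or 0.0947 without that array).

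Ppargc1a, the coactivator that drives mitochondrial and thermogenic genes, had this order of arrays too. It read 9.81, 9.999 and 9.62 at week 2 and 12.36, 10.05 and 11.39 at week 0, with replicate 2 of week 0 next to the week 2 range. The difference was -1.46 (SE 0.31, adjusted p = 0.00223), and -0.91 without week 0 replicate 1 (adjusted p = 0.0261). With the 6 arrays of weeks 2 and 0 fitted alone its adjusted p was 0.094. What set week 0 replicate 1 apart was not tested. Socs3, which shuts off cytokine signalling, was detected on all week 0 and no week 2 arrays and was at least 1.27-fold lower (adjusted p = 0.0193), a call lost without week 2 replicate 1 or 2 or week 0 replicate 1 or 2 (adjusted p up to 0.0842).

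Skeletal muscle markers were higher at week 2 on balance, with a median of 0.99 over 22 measured members (1.03 relative to all genes, and 0.58 without background correction). Of these members 20 had a positive difference and 3 passed (13.6% called, against 17% of all genes tested). Mylpf, a fast myosin light chain, read 9.85, 10.55 and 10.66 at week 2, against 8.76, 8.43 and 8.60 at week 0 (rise 1.76, SE 0.51, adjusted p = 0.0186). Without week 2 replicate 2 or 3 or week 0 replicate 2, its adjusted p was 0.0549 to 0.0723 and 0 members of the list passed. A dimmer Mylpf probe differed by 1.08 (limma, adjusted p = 0.12 over all probes). Ckm, muscle creatine kinase, read 8.11, 8.80 and 8.81 at week 2 and 7.37, 6.70 and 7.00 at week 0 (rise 1.55, adjusted p = 0.0383), and its call was lost without any array but week 2 replicate 1 (adjusted p up to 0.114). Mylk2, the myosin light chain kinase of skeletal muscle, was at least 1.58-fold higher (adjusted p = 0.0464), with the same loss (adjusted p up to 0.161), and was detected on 2 week 2 arrays and no week 0 array. Myh4, a fast myosin heavy chain, differed by 1.23 (adjusted p = 0.0492, and 0.144 at most with 1 array left out, with no call in any such run).

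Week 2 replicates 2 and 3 carried the most muscle signal of the 6 arrays. Week 2 replicate 1 lay below them but above all 3 week 0 arrays, by the list means given at the start. On normal diet Mylpf averaged 11.02, 11.17, 10.58 and 10.85 at weeks 4, 8, 20 and 24, so of the normal diet groups the start had the lowest mean. With the muscle mean as a covariate, 1333 genes were called in all, 1265 of them shared with the 1640. The muscle mean did not overlap between the weeks, and the part of muscle RNA in any single gene was not tested.

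**Figure D5:**
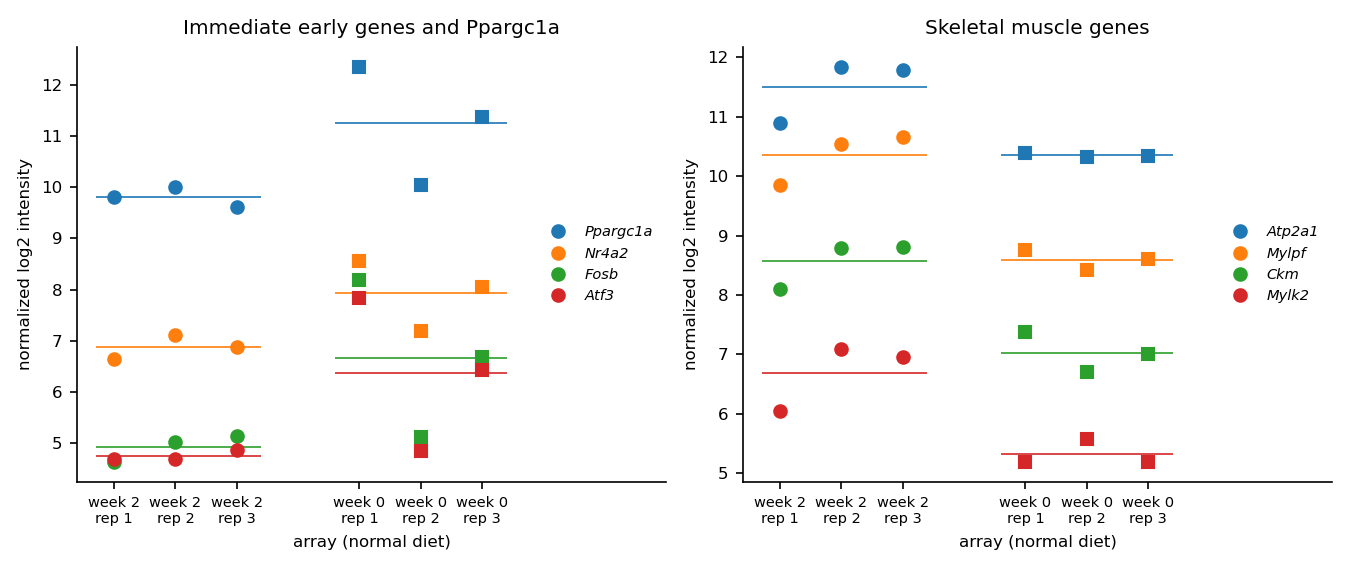
Normalized log2 intensity on each normal diet array, week 2 at the left and week 0 at the right, for 3 immediate early genes and Ppargc1a (left panel) and for 4 skeletal muscle genes (right panel); lines are means of 3 arrays. In the left panel week 0 replicate 1 is highest and replicate 2 lowest of the week 0 arrays, and in the right panel week 2 replicate 1 is the lowest of the week 2 arrays.

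Glucocorticoid-induced genes had 3 falls and 1 rise among 23 measured members (17.4% called, close to the 17% of all genes tested), with 1 fall without week 0 replicate 1. Zbtb16, a zinc finger gene strongly induced by glucocorticoids, read 8.20, 8.55 and 8.21 at week 2 and 9.19, 8.97 and 9.23 at week 0, and fell by 0.81 (adjusted p = 0.00893). Errfi1, a feedback inhibitor of EGF receptors, fell by 0.97 (adjusted p = 0.00589, or 0.0518 without week 0 replicate 1). Tsc22d3 fell by 0.75 at its brightest probe (adjusted p = 0.00554, or 0.0548 without that array), but a second probe rose by 0.64 and the mean over 3 probes was -0.02. Fkbp5, a chaperone of the receptor, read 7.26, 8.62 and 7.98 at week 2, against 8.78, 8.84 and 8.90 at week 0, a difference of -0.89 that did not pass (adjusted p = 0.171). Txnip, which blocks glucose uptake, read 15.12, 15.17 and 15.05 at week 2 and 14.75, 14.49 and 14.61 at week 0, and rose by 0.50 (adjusted p = 0.00302).

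Clock genes gave 2 falls and 1 rise among 16 measured members (18.8% called, close to the 17% of all genes tested). Usp2, a clock-controlled deubiquitinase, read 9.75, 10.04 and 10.36 at week 2, against 11.42, 11.03 and 11.20 at week 0, and fell by 1.17 (SE 0.20, adjusted p = 0.000291). Dbp, an output gene of the clock, read 10.85, 9.28 and 10.70 at week 2 and 11.27, 11.42 and 11.35 at week 0, a difference of -1.07 that did not pass (adjusted p = 0.0996). Nr1d1 differed by 0.17 (adjusted p = 0.626). Tef, an output factor related to Dbp, fell by 0.74 (adjusted p = 0.0428) and Rora, an activator in the clock loop, rose by 0.43 (adjusted p = 0.0164). Both calls were lost without week 2 replicate 2 or week 0 replicate 2, and that of Tef also without week 2 replicate 3 or week 0 replicate 1 (adjusted p up to 0.15 for Tef and 0.088 for Rora). A dimmer Tef probe differed by -0.17 (limma, adjusted p = 0.662 over all probes). The hour of sampling is not in the labels.

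Endothelial markers had 3 falls and 1 rise among 26 measured members (15.4% called, close to the 17% of all genes tested), with a median of -0.16, or -0.12 relative to all genes. Esam, an endothelial adhesion molecule, read 11.87, 11.96 and 11.91 at week 2, against 12.68, 12.17 and 12.44 at week 0, and fell by 0.52 (adjusted p = 0.000556). Tek, the angiopoietin receptor, fell by 0.51 (adjusted p = 0.00158) and Cd93 by 0.46 (adjusted p = 0.00266). Plvap, of fenestrated vessels, was higher by 0.37 (adjusted p = 0.0461), a call lost without week 2 replicate 1 or 2 or week 0 replicate 1 or 3 (adjusted p up to 0.15). Pericyte and smooth muscle genes had 4 falls and 0 rises among 13 measured members (adjusted p under 0.05, limma). These calls make up 30.8%, against 17% of all genes tested. At an unadjusted p under 0.05 there were 4 falls and 3 rises. The 4 called falls were Smtn (-0.59, adjusted p = 0.00243), Notch3 (-0.44, adjusted p = 0.00989), Kcnj8 (-0.36, adjusted p = 0.0114) and Pdgfrb (-0.62, adjusted p = 0.0299). The call of Pdgfrb was lost without any array but week 2 replicate 2 and week 0 replicate 3 (adjusted p up to 0.132).

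Macrophage genes had 2 rises and 3 falls among 26 measured members (19.2% called, against 17% of all genes tested). Their median was -0.09, or -0.05 relative to all genes, with list means of 7.05 to 7.12 at week 2 and 7.15 to 7.22 at week 0. Cd14, the lipopolysaccharide co-receptor, read 8.15, 8.09 and 8.10 at week 2 and 7.29, 7.46 and 7.34 at week 0, and rose by 0.75 (SE 0.12, adjusted p = 0.000114). Folr2, of resident macrophages, fell by 0.77 (adjusted p = 0.00178) and C1qa, of the first complement component, by 0.55 (adjusted p = 0.00434). MHC class II genes had 2 rises among 8 measured members (25%), with list means of 8.44 to 8.60 at week 2 and 8.00 to 8.35 at week 0. The list means of the weeks did not overlap for either list, by a small gap in each. That was common, since 40.3% of all genes tested were apart. Other lists had means apart too, such as the proteasome (11.87 to 11.90 at week 2, 11.92 to 11.95 at week 0). The 2 MHC class II rises were Cd74, the invariant chain (0.58, adjusted p = 0.0404), and H2-Eb1 (0.56, adjusted p = 0.0451). Neither was called without week 2 replicate 1, week 2 replicate 3, week 0 replicate 1 or week 0 replicate 3 (adjusted p up to 0.202 and 0.266). The difference of H2-Eb1 was 0.37 without week 0 replicate 1. T and natural killer cell genes had 0 calls among 4 measured of 21 fixed, and B and plasma cell genes 0 among 5 of 19 (adjusted p under 0.05, limma). At an unadjusted p under 0.05 these counts were 0 and 1, and none of the 5 B cell genes was detected on all 3 arrays of either week.

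Mast cell and granulocyte genes had 3 falls and 0 rises among 9 measured members (adjusted p under 0.05, limma). That is 33.3% called, against 17% of all genes tested. At an unadjusted p under 0.05 there were 3 falls and 1 rise. The 3 called falls were all near the detection limit. List means were 6.51 to 6.70 at week 2 and 6.84 to 6.92 at week 0. S100a9, of neutrophils, was detected on no week 2 array and 2 week 0 arrays and was at least 1.15-fold lower (adjusted p = 0.00265). It was detected on 3 of the 33 arrays, so it was tested only because of the week 0 arrays, where it is higher. Cpa3, a mast cell protease, was detected on no week 2 array and 1 week 0 array (adjusted p = 0.00528), and Cma1 on no array of either week, so neither is given a fold. Of red blood cell genes 1 of 5 fell (20% called, against 17% of all genes tested). Slc4a1, the anion exchanger of red cells, was at least 1.12-fold lower (adjusted p = 0.0402), and its call was lost without any array but week 0 replicate 2 (adjusted p up to 0.192). The list mean was 11.83 to 12.21 at week 2 and 11.96 to 12.78 at week 0, with overlapping arrays.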

How the data were processed

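RNA was extracted with Trizol and RNeasy columns and labelled as biotinylated cRNA, per the labels' protocols. The authors deposited probe intensities, not normalized, which BeadStudio 3.1.3 had produced per the submitters' processing notes, each with a detection p-value. They also deposited normalized log2 values, used here only as an alternative; the method behind them is not given in the sources used here.

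Intensities were corrected and quantile normalized with neqc of limma 3.58.1 in R 4.3.3 (normexp from the detection p-values, offset 16, log2). Of 45281 probes, 34885 had 1 gene symbol, 18 several and 10378 none, and 34807 symbols were updated through RefSeq. The 17243 probes with a detection p under 0.01 on at least 3 of the 33 arrays were kept, and the brightest kept probe stood for each of 9630 genes, out of 19057 on the array. Each of the 11 groups had its own coefficient in the linear model (22 residual and 4.13 prior degrees of freedom), week 2 minus week 0 was the contrast, and p-values of all 9630 genes were adjusted together (Benjamini-Hochberg). Exact permutation of 3 against 3 arrays cannot go below 0.1, so it was not used. The number of arrays limits the precision.

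Genes named are the 15 largest rises and the 15 largest falls that passed with no overlap of arrays, 18 measured genes fixed for brown fat, and up to 4 members with the smallest p of each of 28 of 41 lists (694 of 982 list genes measured). Bag3, Gpam, Agpat2, Fn1 and Acacb were added after their values were seen. The members and lists were chosen with earlier results of these data known. A gene detected on no array of 1 group is given as at least so many fold, where the floor on each array is its dimmest detected signal, or the probe's own if brighter, averaged over the group. The fit was tested on simulated data. Alternatives were 20 other settings of correction, scaling, probes, weights and samples. Figures were drawn with matplotlib 3.10.9.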

Additional observations from a re-analysis of the deposited data

Results flagged for a closer look

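At week 2 the high-fat and normal diet groups can be compared directly, and 183 of 9630 genes (1.9%) differed between them (limma, adjusted p under 0.05). Among the genes named here 12 did, so their differences from the start are not the same on the 2 diets; both are taken against the same week 0 arrays. As high-fat minus normal diet at week 2, the difference was 1.02 for Cox6b2, -0.81 for Sqle, 0.59 for Fabp3, -1.84 for Fkbp5, 0.68 for Sncg and 0.40 for Mlxipl. It was -0.93 for Zbtb16, 0.82 for Socs3, 0.80 for Psmb8, -0.72 for Orm2, -0.92 for Apoc3 and 0.64 for C4b. Adjusted p-values ran from 0.000301 for Fabp3 to 0.0382 for Psmb8. Cox6b2 averaged 6.60 on high-fat and 5.58 on normal diet at week 2, and 7.39 at week 0. Fkbp5 averaged 6.12 on high-fat and 7.96 on normal diet at week 2, and 8.84 at week 0.

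Probes with no gene symbol also carried a difference between the weeks. Of 2467 such probes kept, 382 passed for normal diet week 2 minus week 0 in a fit over all 17243 kept probes, where 2937 (17%) passed.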

How the results depend on the processing

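The count of 1640 called genes became 2671 with arrays aligned at their medians (8.8% of them higher, against 41%), because that scaling moved the median of all genes by -0.18, and 3023 with array weights. With 1 array left out it ran from 994 without week 0 replicate 1 to 1342 without week 0 replicate 2, on fewer samples. In the other settings it stayed within 1.5 times. Among them were 1744 with the authors' values, of which 1602 were shared, and 1445 with the 6 arrays of weeks 2 and 0 alone. With the mean of a gene's probes 1676 were called, of which 1346 were shared. Replicate numbers gave no sign of pairing, with correlations of same-numbered deviations of -0.05, -0.08 and -0.02. Arrays of different numbers ran from -0.03 to 0.08. With 3 arrays a group this check cannot exclude pairing. With the replicate as a block 1581 genes were called.

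Of 122 named genes called, 74 were called in each of 20 other settings and 48 lost the call in at least 1. Signs turned in Cidea, Sqle, Pdk4, Nr1d1, Igf2 and Cdkn1c, none of which had passed, and the cause was not tested except for the shift of all genes under median alignment. After median alignment Pdk4 was -0.051, Nr1d1 -0.037 and Cdkn1c -0.017, all above the median of all genes there (-0.22). Sqle was 0.4875 as the mean of its probes (adjusted p = 0.0188), where its dimmer probe enters, 0.013 with the muscle covariate and 0.018 with the lymphoid covariate. It ran from -0.157 without week 2 replicate 3 to 0.080 without week 2 replicate 2. Pdk4 was -0.007 with the muscle covariate. Igf2 was 0.023 with array weights, and ran from -0.138 without week 0 replicate 3 to 0.030 without week 0 replicate 1. Cidea ran from -0.062 without week 0 replicate 1 to 0.0041 without week 0 replicate 3. The 3 arrays a group and probes near background limit the smallest changes and the dimmest genes.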

Other observations

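Branched-chain amino acid genes had 2 rises and 2 falls among 19 measured members (21.05% called, against 17% of all genes tested). Their median was -0.03, or 0.01 relative to all genes. Slc25a44, the mitochondrial carrier of these amino acids in brown fat, read 11.09, 10.996 and 11.06 at week 2, against 11.48, 11.45 and 11.61 at week 0, and fell by 0.47 (SE 0.07, adjusted p = 0.000139). Acad8, the dehydrogenase of valine breakdown, rose by 0.73 (adjusted p = 0.0005). A dimmer Acad8 probe differed by 0.39 (limma, adjusted p = 0.089 over all probes). Mccc2, of leucine breakdown, rose by 0.39 (adjusted p = 0.00803, or 0.0663 without week 0 replicate 1). Xenobiotic enzymes had 3 rises and 1 fall among 33 measured members (12.1% called, against the same 17%). They were Gstp2 at 0.60, Cyp4b1 at 0.58, Sult1d1 at 0.57 and Aldh1a7 at -0.49. Each of those calls was lost without at least 1 array, with adjusted p up to 0.0775, 0.122, 0.0873 and 0.099 in that order, and with 1 rise left without week 2 replicate 3 or week 0 replicate 2. Gstp2 has near-identical copies, which its probe may also read.

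Interferon response genes had 2 rises among 31 measured members (6.45% called, against 17% of all genes tested). Of the members 21 had a positive difference. The median was 0.11, which is 0.15 relative to all genes and 0.13 relative to them after median alignment. Ifi27, bright in fat, read 15.79, 15.83 and 15.77 at week 2 and 15.55, 15.60 and 15.57 at week 0 (0.23, adjusted p = 0.0103, and 0.382 after median alignment). Psmb8, an immunoproteasome subunit, was 0.64 higher (adjusted p = 0.0293, and up to 0.102 with 1 array left out). A dimmer Psmb8 probe differed by 0.20 (limma, adjusted p = 0.577 over all probes), and the mean over the Psmb8 probes was not called. Secreted liver-type genes had 1 rise, Trf (transferrin, 0.66, adjusted p = 0.0153), and 2 falls, Orm2 (-0.47) and Apoc3 (-0.63), among 12 (25% called). Those calls were lost without 4, 4 and 6 of the arrays, each left out in turn.

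Nuclear genes of oxidative phosphorylation had 1 rise and 2 falls among 26 measured members, the tricarboxylic acid cycle 3 falls among 16, mitochondrial ribosomal genes 2 falls among 31, proteasome genes 3 falls among 25 and cytosolic ribosomal genes 2 rises among 23. The share called was 18.8% for the tricarboxylic acid cycle and 6.45% to 12% for the others, against 17% of all genes tested. Their medians ran from -0.07 to 0.03, or from -0.03 to 0.06 relative to all genes. Leaving out week 0 replicate 1 left 0 calls in oxidative phosphorylation, the tricarboxylic acid cycle and the mitochondrial ribosome. Fibroblast genes had 2 rises and 1 fall among 16 (18.75% called). Schwann cell genes had 1 and 2 among 6 (50%), and retinoid genes 1 rise among 7 (14.3%).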
